A study of Mus musculus with 10 samples.

Results

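The comparison described here is that of pre-B cells given DRB together with etoposide (1 library) against cells given etoposide alone (2 libraries, replicates 2 and 1), chosen by the library titles. These are 3 of the 10 libraries of the series. The libraries of DRB alone (n = 1) and of untreated cells (n = 2, replicates 2 and 1) are used beside them as the background without etoposide. All were genomic DNA libraries of C57BL/6 LIG4-/- pre-B cells transformed with the Abelson virus and arrested in G1 with imatinib for 48 h. In all of them a zinc-finger nuclease was induced with doxycycline at 1 µg/ml, from 24 h of imatinib. Etoposide was given at 50 µM for 2.5 h, followed by washing and 12 h of recovery. DRB was given 2 h before etoposide and kept during it. The labels do not say whether the libraries came from 1 or several lines or cultures, and no line without the LIG4 deletion is among the groups. The labels name etoposide replicate 1 as the control of the library with DRB and etoposide, but by read names that library shares its sequencing run with etoposide replicate 2. Etoposide replicate 2 was therefore the main control and replicate 1 the second.

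Translocations were mapped by HTGTS, in which a primer beside 1 known break, the bait, is extended into whatever DNA, the prey, was joined to it. Etoposide traps topoisomerase II on the DNA it has cut, and some of these complexes become double-strand breaks. DRB inhibits CDK9, the kinase that releases paused RNA polymerase II into elongation. LIG4 is the ligase of classical end joining, and cells without it join ends by alternative pathways that often use microhomology, a few bases shared by both ends. In G1-arrested pre-B cells the RAG recombinase also cuts the immunoglobulin kappa locus, so those breaks are made without etoposide.

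The bait break lies on chromosome 6 at position 41554973 (mm10), in the T-cell receptor beta locus. The constant region Trbc2 (41546730 to 41548181) precedes it and the variable segment Trbv31 (41557693 to 41558371) follows it. The 60 bases up to the break are shown first because the joints start from the bait, often from a shortened form of it. A joint that lost more than 60 bases, such as the Smyd2 joint below, holds none of them. All 22 reads of the library with DRB and etoposide that ran through the break with an ungapped alignment, and passed the length filter for printing, had this spelling. The 4 joints after it show the kinds of joint that the results turn on, each read from the bait into the prey. Capitals mark bases shared by bait and prey or inserted between them. The 4 joints were picked among printable reads, those that passed the filters for printing.
Bait, chr6:41554914-41554973, plus strand: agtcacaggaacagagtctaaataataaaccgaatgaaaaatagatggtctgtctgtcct
Foxp1 joint, DRB with etoposide: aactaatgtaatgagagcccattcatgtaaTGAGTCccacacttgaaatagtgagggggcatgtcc
Smyd2 joint, DRB with etoposide: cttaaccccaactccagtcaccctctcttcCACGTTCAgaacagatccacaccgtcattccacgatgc
Igkj1 joint, DRB with etoposide: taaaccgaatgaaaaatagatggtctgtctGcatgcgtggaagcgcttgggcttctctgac
Braf joint, etoposide replicate 2: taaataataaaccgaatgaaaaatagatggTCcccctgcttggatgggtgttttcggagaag
Among the printable reads of the library, the Foxp1 joint (chromosome 6, 99369161, plus strand) has the longest microhomology of that gene, 6 bases. In it 56 bases were missing from the bait end. The Smyd2 joint (chromosome 1, 189890783, minus strand, in the gene body at 189880492 to 189922495) is an insertion joint of 8 bases with 114 bases missing from the bait. It was taken as the joint to another chromosome whose insertion was nearest the median length, simple repeats left out. The Igkj1 joint (chromosome 6, 70722463, minus strand) is at the position most frequent among printable reads beside the kappa joining segment Igkj1 (70722562 to 70722599). It shares 1 base and had lost 4 bases of bait. The Braf joint (chromosome 6, 39614136, plus strand) shares 2 bases and had lost 10. The annotation used here does not give exons, so exonic and intronic positions were not told apart.

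The library with DRB and etoposide held 2718 junctions, against 7734 in etoposide replicate 2 and 11717 in etoposide replicate 1. The library of DRB alone held 3629, and the untreated replicates 2 and 1 held 6326 and 2038. Junctions within 1 Mb of the bait numbered 2255 with DRB and etoposide, against 4013 and 1198 in etoposide replicates 2 and 1, and they serve as the scale below. Etoposide replicate 1 and untreated replicate 1 shared a run of longer alignments, with median prey alignments of 271 and 253 bp, against 84 bp with DRB and etoposide and 75 bp in etoposide replicate 2. There is 1 library with DRB and etoposide, so Fisher's exact tests below (two-sided, Benjamini-Hochberg adjusted within each family) compare libraries and not conditions, and 95% intervals cover counting error only. No expression was measured, so the cell type could be checked only by the kappa locus, which held 208 junctions with DRB and etoposide, 422 and 201 with etoposide alone and 320, 685 and 237 in the libraries without etoposide.

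Joining outside the antigen receptor loci was several-fold lower with DRB and etoposide than with etoposide alone, on chromosome 6 and on the other chromosomes alike, while joining to the kappa locus differed much less. Chromosome 6 prey, meaning junctions on chromosome 6 more than 1 Mb from the bait and outside antigen receptor loci, numbered 92 with DRB and etoposide, against 1250 and 3877 in etoposide replicates 2 and 1. Per 1000 junctions near the bait that is 40.8 with DRB and etoposide, against 311 and 3236 with etoposide alone, 19.4 with DRB alone and 23.3 and 53.4 in untreated replicates 2 and 1. Prey on other chromosomes numbered 162 with DRB and etoposide, against 2046 and 6430, or 71.8 per 1000 against 510 and 5367. The library of DRB alone had 34.4 per 1000 on other chromosomes, and untreated replicates 2 and 1 had 46.5 and 547. The library with DRB and etoposide thus lay below both etoposide libraries and above DRB alone and untreated replicate 2, but untreated replicate 1 was higher than it and higher than etoposide replicate 2 on other chromosomes. Set against etoposide replicate 2, the ratio of rates was 0.131 on chromosome 6 (95% interval 0.105 to 0.163) and 0.141 on other chromosomes (0.119 to 0.167).

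**Figure D1:**
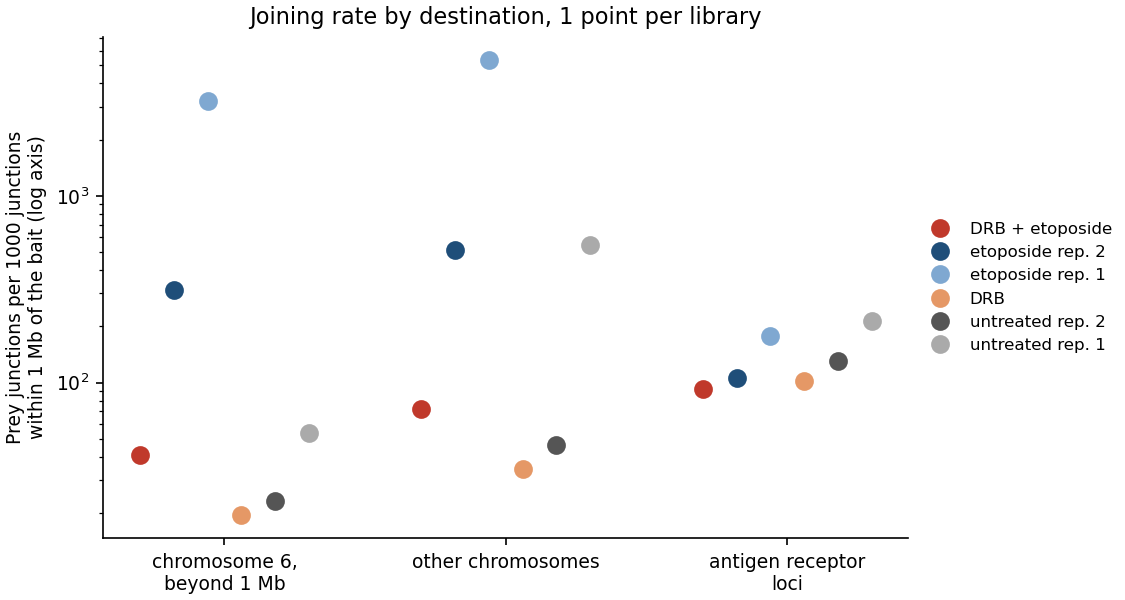
Prey junctions per 1000 junctions within 1 Mb of the bait (log axis), 1 point per library, for chromosome 6 and other chromosomes outside antigen receptor loci and for the antigen receptor loci. On chromosome 6 the library with DRB and etoposide stands at 40.8, against 311 and 3236 with etoposide alone, while at antigen receptor loci the corresponding values are 92.7, 106 and 177.

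Chromosome 6 made up 36.2% of prey outside antigen receptor loci with DRB and etoposide, against 37.9% and 37.6%, a difference to replicate 2 of -1.70 points (-7.84 to 4.43). The 2 etoposide libraries differed from each other by 3.39 on the log2 scale in prey rate outside antigen receptor loci. The library with DRB and etoposide differed from their mean by -4.56 on that scale, and an exact two-sided permutation test over the 3 libraries gave p = 0.667, where 0.333 is the smallest that 1 library against 2 allows. Antigen receptor prey stood at 92.7 per 1000 with DRB and etoposide, against 106 in etoposide replicate 2, a ratio of 0.875 (0.736 to 1.04, Fisher's exact p = 0.139). Against etoposide replicate 1, with 177 per 1000, the ratio was 0.524 (0.427 to 0.642), and when identical positions were counted once it was 0.780 against replicate 2 (0.650 to 0.935), so a lower rate at antigen receptor loci was seen under those settings. Scaled to all junctions instead, the ratio to replicate 2 was 1.40 (1.18 to 1.66).

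The ratio of prey with etoposide to prey without it was also smaller with DRB when each etoposide library was set against its own library without etoposide. Chromosome 6 prey was 2.10-fold higher with DRB and etoposide than with DRB alone (1.51 to 2.92). It was 13.4-fold higher in etoposide replicate 2 than in untreated replicate 2 (11.1 to 16.1) and 60.6-fold higher in etoposide replicate 1 than in untreated replicate 1 (46.4 to 79.2). On other chromosomes the same ratios were 2.09 with DRB, 11.0 for replicate 2 and 9.81 for replicate 1. Chromosome 6 made up 8.89% of prey outside antigen receptor loci in untreated replicate 1, against 33.4% in untreated replicate 2 and 36.1% with DRB alone. The library with DRB and etoposide was sequenced in another run than DRB alone, and so was etoposide replicate 2 than untreated replicate 2. Antigen receptor prey was 0.909-fold with DRB and etoposide over DRB alone (0.758 to 1.09), and 0.815-fold in etoposide replicate 2 over untreated replicate 2 (0.717 to 0.926). For all prey outside antigen receptor loci the ratio with DRB was 0.178 times that without (0.141 to 0.224). The same quotient at antigen receptor loci was 1.12 (0.893 to 1.39, adjusted p = 0.358 by a Wald test over 16 comparisons).

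Along chromosome 6 the gap between the libraries was wider far from the bait than close to it. At 1 to 2 Mb there were 7 junctions with DRB and etoposide (3.10 per 1000), against 44 in etoposide replicate 2 (11.0 per 1000) and 117 in replicate 1 (97.7 per 1000). At 10 to 20 Mb there were 10 (4.43 per 1000), against 195 (48.6 per 1000) and 654 (546 per 1000). The ratio to etoposide replicate 2 was 0.283 at 1 to 2 Mb, 0.190 at 2 to 5 Mb, 0.163 at 5 to 10 Mb, 0.0913 at 10 to 20 Mb, 0.150 at 20 to 50 Mb and 0.103 beyond 50 Mb. Pooled, it was 0.189 at 1 to 10 Mb (0.129 to 0.276) and 0.114 beyond 10 Mb (0.0878 to 0.148). The first was 1.65 times the second (1.05 to 2.61, adjusted p = 0.0443, Wald test), and against etoposide replicate 1 it was 1.89 times (1.21 to 2.94, adjusted p = 0.0077). The distances were grouped after earlier results were known.

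**Figure D2:**
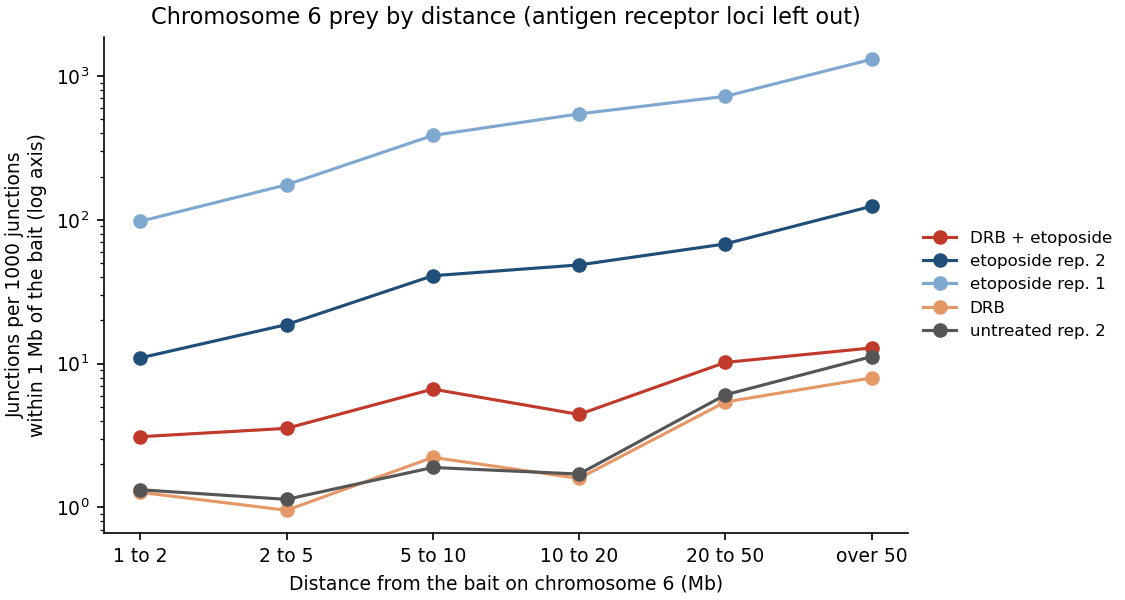
Chromosome 6 junctions outside antigen receptor loci per 1000 junctions within 1 Mb of the bait (log axis), by distance from the bait in Mb, 1 line per library (untreated replicate 1 not drawn). The line of DRB with etoposide lies below both etoposide lines in every bin, at 3.10 against 11.0 and 97.7 for 1 to 2 Mb and at 4.43 against 48.6 and 546 for 10 to 20 Mb.

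A like difference was present inside the 1 Mb that served as the scale. Junctions 20 kb to 1 Mb from the bait made up 0.710% of those near it with DRB and etoposide (16 junctions), against 2.87% in etoposide replicate 2 (115) and 20.1% in replicate 1 (241). The libraries of DRB alone, untreated replicate 2 and untreated replicate 1 had 0.287%, 0.190% and 0.445%. The difference to etoposide replicate 2 was -2.16 percentage points (-2.78 to -1.53, adjusted p = 8.16e-09). Within 100 bases of the bait the shares were 38.4% with DRB and etoposide and 36.4% in etoposide replicate 2, a difference of 2.00 points (-0.496 to 4.50, adjusted p = 0.175). Etoposide replicate 1 had 24.2% there, a difference of 14.2 points (Fisher's exact, adjusted p = 4.15e-17).

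On the other chromosomes, junctions lay less often inside genes with DRB and etoposide than with etoposide alone. Of the 162 junctions there with DRB and etoposide, 73 lay inside protein-coding gene bodies, or 45.1% (37.3 to 53.1), against 67.8% in etoposide replicate 2 and 67.2% in replicate 1. Without etoposide the share was 37.0% with DRB and 44.9% and 39.2% in untreated replicates 2 and 1. Gene bodies make up 39.8% of the annotated length off chromosome 6, and only the 2 etoposide libraries had a share whose interval lay wholly above that value, so the library with DRB and etoposide stood among those without etoposide. The difference to etoposide replicate 2 was -22.7 points (-30.7 to -14.8, adjusted p = 6.34e-08), and the same test between the 2 etoposide replicates gave adjusted p = 0.783.

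Gene starts, whose windows overlap gene bodies, differed in the same direction. The share of junctions on other chromosomes within 5 kb of a gene start, where strand was annotated, was 9.68% with DRB and etoposide (15 junctions), against 19.4% (382) and 19.5% (1211) in etoposide replicates 2 and 1. It was 13.7%, 10.1% and 9.60% with DRB alone and in untreated replicates 2 and 1, while 6.90% of the annotated length lies that close to a start. The difference to etoposide replicate 2 was -9.73 points (-14.7 to -4.76, adjusted p = 0.00613). Among junctions inside gene bodies the start share was 14.1% with DRB and etoposide, against 22.0% in etoposide replicate 2 (Fisher's exact, adjusted p = 0.198). Among those outside gene bodies it was 5.95%, against 13.9% (adjusted p = 0.0648). Neither part alone passed the threshold, so a difference at starts apart from gene bodies was not shown. As rates, the ratio of DRB with etoposide to etoposide replicate 2 was 0.0699 near gene starts (0.0416 to 0.117), 0.105 in gene bodies beyond 5 kb of a start (0.0805 to 0.136) and 0.256 outside both (0.201 to 0.325). The ratio inside gene bodies, 0.0937, was 0.390 times that outside, 0.240 (0.282 to 0.538 for the quotient, adjusted p = 2.9e-08).

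Chromosome 6 differed in this. Gene bodies held 70.7% of chromosome 6 prey with DRB and etoposide (65 of 92 junctions), against 70.7% and 68.5% in etoposide replicates 2 and 1, a difference to replicate 2 of -0.0678 points (-9.71 to 9.57). They held 44.3% with DRB alone and 59.3% and 48.3% in untreated replicates 2 and 1. The odds ratio for gene bodies on other chromosomes was 0.391 times that on chromosome 6 (0.222 to 0.689, adjusted p = 0.00205, Wald test), so the 2 destinations differed.

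**Figure D3:**
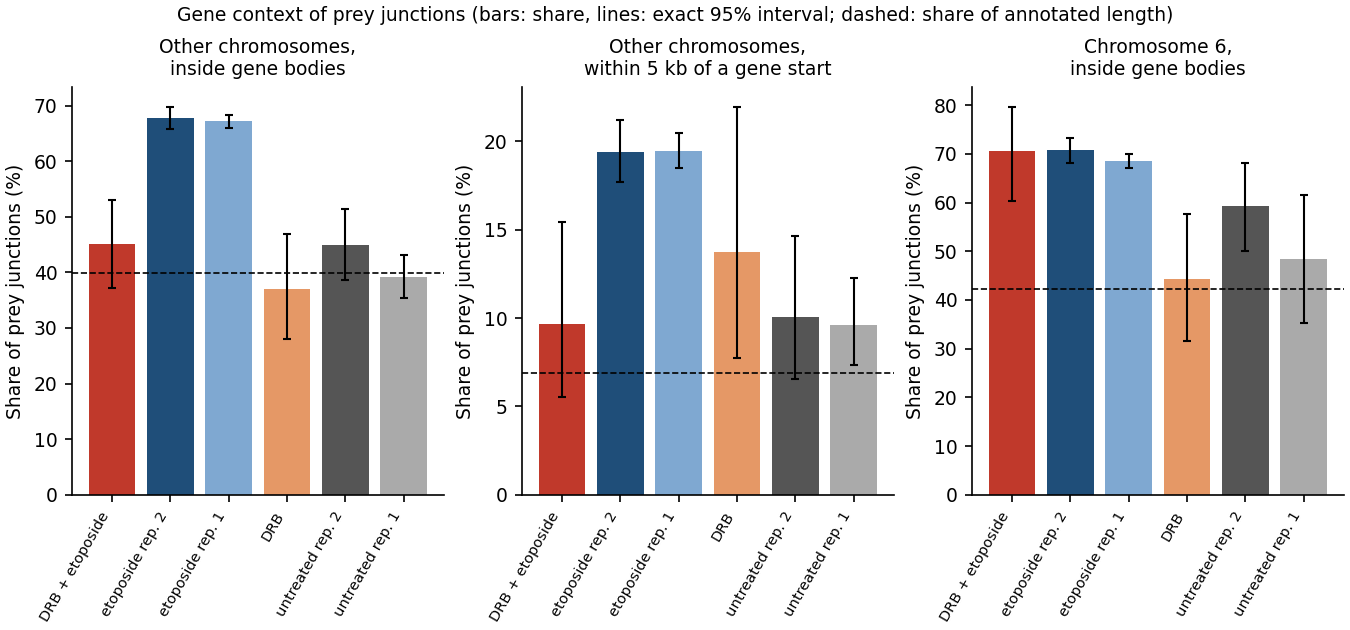
Shares of prey junctions (%) inside gene bodies or within 5 kb of a gene start, per library, with exact 95% intervals and the share of annotated length as a dashed line. On other chromosomes the library with DRB and etoposide stands at 45.1% in gene bodies, against 67.8% and 67.2% with etoposide alone, while on chromosome 6 it stands at 70.7%, against 70.7% and 68.5%.

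Within chromosome 6 genes, however, the junctions lay farther from the gene start, and the genes hit were longer. Of those in genes with a known strand, 62.5% (35 of 56) lay more than 50 kb from the gene start with DRB and etoposide, against 36.3% in etoposide replicate 2 and 37.0% in replicate 1 (adjusted p = 0.00197 and 0.00254). With DRB alone and in untreated replicates 2 and 1 the shares were 83.3%, 68.2% and 56.0%. Foxp1 alone gave 10 of these junctions with DRB and etoposide. Without it the shares were 54.3% with DRB and etoposide, against 33.5% and 35.05% (unadjusted Fisher's exact p = 0.00606 and 0.0081). The median length of the gene hit, over chromosome 6 junctions in genes, was 163 kb with DRB and etoposide, against 78.7 and 74.7 kb in etoposide replicates 2 and 1 and 597, 413 and 212 kb with DRB alone and in untreated replicates 2 and 1. Without Foxp1 it was 118 kb with DRB and etoposide, against 73.3 and 72.5 kb, and 258 kb with DRB alone and 105 and 174 kb in untreated replicates 2 and 1. Relative to gene length, Foxp1 included, 50.0% lay in the first 50% of the gene with DRB and etoposide. The etoposide replicates 2 and 1 had 57.4% and 56.0% there (Fisher's exact, adjusted p = 0.616 and 0.778). A shift in relative position was thus not shown. On other chromosomes 35.8% lay more than 50 kb from the start with DRB and etoposide, against 29.8% and 30.7% (adjusted p = 0.616 against replicate 2), a difference of 6.03 points (-7.17 to 19.2).

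The joints to other chromosomes differed too. Microhomology was present in 65.4% of them with DRB and etoposide (106 of 162), against 84.3% and 83.5% in etoposide replicates 2 and 1. It was present in 58.3% with DRB alone and in 63.7% and 55.0% of untreated replicates 2 and 1. The difference to etoposide replicate 2 was -18.9 points (-26.4 to -11.4, adjusted p = 3.05e-07). Joints with inserted bases, such as the Smyd2 joint printed above, made up 16.05% with DRB and etoposide (26 junctions), against 3.67% (75) and 4.77% (307). DRB alone and untreated replicates 2 and 1 had 16.7%, 16.3% and 18.05%. The library with DRB and etoposide thus lay with the libraries without etoposide in both measures, and the etoposide replicates lay together. For longer microhomology, of at least 4 bases, no difference was shown. It was present in 30.2% with DRB and etoposide, against 31.0% and 36.8% in etoposide replicates 2 and 1 (Fisher's exact, adjusted p = 0.970 and 0.197). The difference to replicate 2 was -0.740 points (-8.09 to 6.61). Bait ends that had lost over 50 bases were 46.9% with DRB and etoposide, against 62.6% in etoposide replicate 2 (adjusted p = 0.000645) and 54.5% in replicate 1 (adjusted p = 0.158), but the 2 etoposide libraries themselves differed in this measure (adjusted p = 1.2e-09).

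The microhomology difference was larger for other chromosomes than for the other destinations. Chromosome 6 joints had microhomology in 81.5% with DRB and etoposide (75 of 92), against 86.1% and 88.1%, a difference to replicate 2 of -4.56 points (-12.7 to 3.60). Near-bait joints had it in 72.7% with DRB and etoposide, against 69.6% and 79.0%. Kappa joints, such as the Igkj1 joint, had it in 88.0%, against 81.0% and 83.6% (difference 6.94 points, 1.15 to 12.7, adjusted p = 0.0818). The odds ratio for microhomology on other chromosomes was 0.494 times that on chromosome 6 (adjusted p = 0.0443), 0.303 times that near the bait (adjusted p = 5.09e-10) and 0.206 times that at the kappa locus (adjusted p = 4.16e-07). For insertions it was 2.37 times that on chromosome 6 (0.807 to 6.96, Wald test, adjusted p = 0.133), so a difference from chromosome 6 was not shown. It was 5.92 times that near the bait (adjusted p = 1.29e-11) and 9.99 times that at the kappa locus (adjusted p = 6.01e-09). Bait ends that had lost over 50 bases were fewer on chromosome 6 as well, 31.5% with DRB and etoposide, against 56.2% and 46.1% (adjusted p = 5.02e-05 and 0.0196), and there too the 2 etoposide libraries differed from each other (adjusted p = 3.57e-09).

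**Figure D4:**
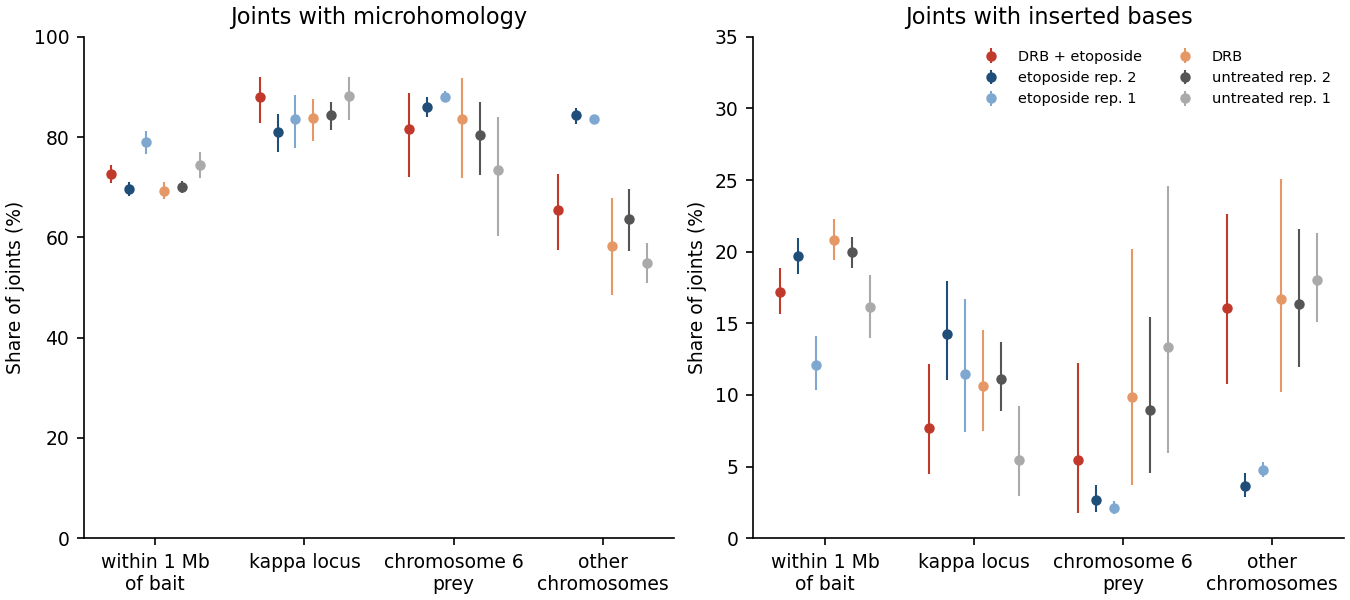
Shares of joints (%) with microhomology (left) and with inserted bases (right) by destination, 1 point per library with exact 95% intervals. On other chromosomes the library with DRB and etoposide has 65.4% microhomology and 16.05% insertions, against 84.3% and 3.67% in etoposide replicate 2, while on chromosome 6 microhomology stands at 81.5%, against 86.1%.

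Prey that begin in a simple repeat (a stretch of at least 16 bases with a period of up to 4 bases in the first 40) moved with the joint measures. They made up 9.26% of prey on other chromosomes with DRB and etoposide (15 of 162), against 3.42% in etoposide replicate 2 and 2.85% in replicate 1 (adjusted p = 0.00194 and 0.00024), and 10.2%, 9.80% and 9.43% with DRB alone and in untreated replicates 2 and 1. Without such prey, microhomology stood at 68.7% with DRB and etoposide, against 85.2% and 84.5%, and insertions at 11.6%, against 2.68% and 3.81%. The gene body share was then 46.3%, against 68.7% and 67.8%, so each of these differences was still present when those reads were left out. Among the repeat prey alone, 9 of 15 joints had an insertion with DRB and etoposide, against 22 of 70 in etoposide replicate 2.

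The genes hit most with etoposide on chromosome 6 held few junctions with DRB and etoposide, in about the proportion of all chromosome 6 prey. This was measured on genes chosen in etoposide replicate 1 alone, counted with 2 kb on either side. The 78 genes on chromosome 6 with at least 10 junctions there held 31 junctions with DRB and etoposide, or 13.7 per 1000 near the bait, against 421 (105 per 1000) in etoposide replicate 2. The ratio was 0.131 (0.0907 to 0.189), beside 0.131 for all chromosome 6 prey, and without Foxp1, left out after its values were seen, it was 0.0976 (0.0627 to 0.152). The library with DRB and etoposide hit 18 of these genes, and etoposide replicate 2 hit all 78. Over the whole genome 125 genes were hit with DRB and etoposide, against 1642 in etoposide replicate 2 and 3645 in replicate 1. The junctions in genes numbered 146, against 2426 and 7485. The numbers of genes hit were not matched for the number of junctions and are no separate result.

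Single genes could be tested only where DRB with etoposide and etoposide replicate 2 together had at least 10 junctions, which held for 14 genes, all on chromosome 6. Of these, 8 had a lower rate by Fisher's exact test at adjusted p under 0.05 (57.1% of those tested) and 0 a higher one, with 10 under 0.05 unadjusted. The genes called had 0 junctions with DRB and etoposide in 7 of 8 cases and so were in the test through etoposide replicate 2 alone, where they are high. The calls therefore describe which genes were hit in that library and say nothing particular to them. Limma with voom weights, which assumes that the lone library varies like the 2 etoposide libraries, called 10 lower and 0 higher. Scaled to all junctions or to prey outside antigen receptor loci, 0 of the 14 were lower, and on the latter scale 2 were higher (14.3%).

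The counts of the 8 genes follow as a description. Braf, a kinase of the MAP kinase pathway, had 0 junctions with DRB and etoposide, against 20 and 21 in etoposide replicates 2 and 1. Exoc4, a subunit of the exocyst that tethers secretory vesicles, had 1 with DRB and etoposide, against 22 and 64. Hipk2, a nuclear kinase that acts on p53, had 0 against 15 and 37. The inositol trisphosphate receptor genes Itpr2 and Itpr1, whose products release calcium from the endoplasmic reticulum, had 0 each, against 12 and 39 in Itpr2 and 11 and 21 in Itpr1. Luc7l2, a splicing factor gene, had 0 against 12 and 6. Fam3c, which encodes a secreted protein, had 0 against 11 and 38, and Vgll4, a partner of TEAD transcription factors, had 0 against 11 and 27. In the libraries without etoposide these 8 genes held 0 to 3 junctions each, the 3 being in Exoc4 in untreated replicate 2.

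Foxp1, a forkhead transcription factor gene needed in early B-cell development and the site of the 6-base joint printed above, held the most junctions of any gene with DRB and etoposide. It had 10 junctions with DRB and etoposide (4.43 per 1000 near the bait), against 38 (9.47 per 1000) and 83 (69.3 per 1000) in etoposide replicates 2 and 1. It also had 10 junctions with DRB alone (3.18 per 1000), 27 in untreated replicate 2 (5.12 per 1000) and 3 in untreated replicate 1 (2.67 per 1000). Its level with DRB and etoposide thus lay among those of the libraries without etoposide. The ratio to etoposide replicate 2 was 0.468 (0.233 to 0.942, adjusted p = 0.0522). As a share of the prey outside antigen receptor loci it was higher with DRB and etoposide, at 3.94%, against 1.15% in etoposide replicate 2 (Fisher's exact, adjusted p = 0.0279, 1 of the 2 genes called on that scale).

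**Figure D5:**
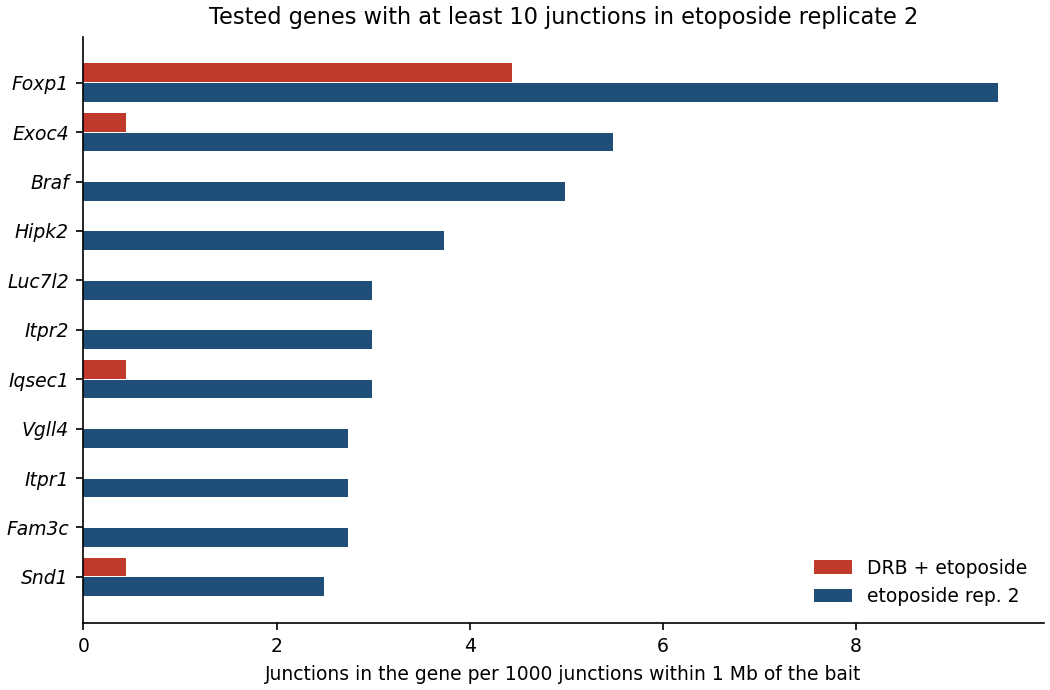
Junctions per 1000 junctions within 1 Mb of the bait in the 11 tested genes with at least 10 junctions in etoposide replicate 2, with DRB and etoposide above etoposide replicate 2 for each gene. The genes drawn were chosen on etoposide replicate 2. In 7 of the 8 genes called lower the bar of DRB with etoposide is at 0, and Foxp1 stands at 4.43 against 9.47.

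Of the other tested genes, Iqsec1, an exchange factor for ARF GTPases, had 1 junction with DRB and etoposide, against 12 and 47. Snd1 had 1, against 10 and 27, Cecr2 had 1, against 9 and 5, and Frmd4b had 2, against 8 and 21. Genes with fewer junctions in etoposide replicate 2 were not tested, and a count of 0 with DRB and etoposide is no result about them. Etv6, a transcription factor gene often rearranged in leukaemia, had 0 against 7 and 32, and Ube2h, a ubiquitin-conjugating enzyme gene, had 0 against 5 and 34. Off chromosome 6 the genes most hit with etoposide, Rere, Gse1, Arid1b, Mtss1 and Trio, all had 0, against 2 to 4 in etoposide replicate 2 and 7 to 10 in replicate 1.

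A few genes were hit in the library with DRB and etoposide and hardly with etoposide alone. Crisp1, a gene of the male reproductive tract, had 4 junctions, against 0 and 0, and 1 each with DRB alone and in untreated replicate 2. All 4 lie at 1 position on chromosome 17 (40291785), before the annotated gene (40293758 to 40319207), and 3 of them have inserted bases (3 to 15). Their prey alignments are all 43 bp long, shorter than the 50 bp required in an alternative setting. Gtf3c4, a subunit of the RNA polymerase III factor TFIIIC, had 3 junctions, against 1 and 0, and 5 in untreated replicate 2. A 20-kb window on chromosome 14 (from 19400000) that holds no protein-coding gene had 6, against 4 and 15, and 9 in untreated replicate 1. By chromosome, 0 of 19 shares differed from etoposide replicate 2 at adjusted p under 0.05, with 3 under 0.05 unadjusted by Fisher's exact test.

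As shares of prey, genes chosen on etoposide replicate 1 alone were less frequent off chromosome 6 with DRB and etoposide, and so were genes as a whole. The 331 genes there with at least 3 junctions in etoposide replicate 1 held 3.09% of prey on other chromosomes with DRB and etoposide (5 junctions), against 9.34% in etoposide replicate 2 (191 junctions, adjusted p = 0.00591). They held 2.78% with DRB alone and 2.86% in untreated replicate 2. The 3097 genes with at least 1 junction held 22.8% with DRB and etoposide (37 junctions), against 36.5% in etoposide replicate 2 (adjusted p = 0.00131), with 12.0% for DRB alone and 19.6% for untreated replicate 2. All protein-coding genes, counted with 2 kb on either side, held 49.4% with DRB and etoposide, against 72.7% in etoposide replicate 2. DRB alone had 41.7% and untreated replicate 2 had 48.6%. Whether the sets fell more than all genes was not tested. On chromosome 6 the 77 genes with at least 10 junctions, Foxp1 left out, held 25.6% of prey with DRB and etoposide (21 junctions), against 31.6% in etoposide replicate 2 (Fisher's exact p = 0.271). They held 9.80% with DRB alone and 16.7% in untreated replicate 2. The sets differ in their minimum, and the difference between chromosome 6 and the other chromosomes was not tested.

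Most gene lists held 0 to 2 junctions with DRB and etoposide, and the B-lineage and leukaemia lists held 12 each. Over all protein-coding genes the ratio of junction rates to etoposide replicate 2 was 0.107, so a list with few junctions in etoposide replicate 2 would often be at 0, and such a 0 is no result about the list. The 28 housekeeping genes held 0 junctions with DRB and etoposide, against 2 and 17. Likewise the 32 immediate-early genes (Btg1, Cd69, Tnfaip3 and others) held 0, against 3 and 21. For the 25 p53 target genes (Bax, Btg2, Xpc and others) it was 0, against 7 and 16. The 28 interferon-stimulated genes found of 30 (Zc3hav1, Parp11, Usp18 and others) held 0, against 7 and 28. Genes of transcription elongation, 30 in all, held 1 junction, in Aff1, a scaffold subunit of the super elongation complex, against 7 and 16. The 20 genes of topoisomerases and chromosome loops held 1, against 6 and 10, and Top2b, which encodes the topoisomerase II of non-dividing cells, held 0, against 1 and 1. The 33 long neural genes held 2, against 19 and 48. The 30 B-lineage genes and the 31 genes of leukaemia translocations held 12 each, against 61 and 126 and against 62 and 162, with ratios of 0.350 (0.188 to 0.651) and 0.344 (0.185 to 0.640). Foxp1, in both lists, gave 10 of the 12, and the B-lineage members off chromosome 6 held 2, against 23 and 43. Genes of other blood lineages, 20 in all, held 0, against 1 and 2. Of all list members, 1 was tested (Foxp1), and 0 were called.

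At the kappa locus, the shares of joints at joining and variable segments did not differ beyond counting error between DRB with etoposide and etoposide replicate 2. Joining segments took 6.25% of kappa junctions within 200 bases with DRB and etoposide (13), against 4.74% (20) and 3.48% (7) in etoposide replicates 2 and 1. Variable segments took 40.9% with DRB and etoposide, against 46.2% and 50.7%, and the remainder lay away from both. Against replicate 2 the adjusted p was 0.449 for each of the 3 shares, with differences of 1.51 points for joining segments (-2.35 to 5.38) and -5.34 for variable segments (-13.5 to 2.86). Unadjusted, Fisher's exact p was 0.233 or more for all of them. The segments most often joined with DRB and etoposide were Igkv9-123 (11 junctions, against 16 and 11), Igkv6-32 (9, against 30 and 4), Igkv11-125 (8, against 17 and 7) and Igkj1 (7, against 14 and 4). Igkv19-93, chosen after its values were seen, had 0 with DRB and etoposide, against 16 and 6 with etoposide alone, 10 with DRB alone and 19 and 3 in untreated replicates 2 and 1. Single segments were not tested.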

How the data were processed

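Each row of the authors' deposited files is 1 junction: where it lies, on which strand, the read and both alignments, per the file headers. No value in them is normalized. Per the labels' protocols, MiSeq reads went through the assay's standard pipeline. Bedtools, mm10 and GRCm38.p2 are listed in the submitters' processing notes. Rows on chromosomes 1 to 19 and X were kept. Groups of 10 or more annotated segments with gaps of at most 1 Mb were taken as antigen receptor loci. Gene positions came from NCBI RefSeq (GRCm38.p6), and gene starts from its promoter table, which gave the strand of 82.2% of protein-coding genes (chromosome 18 is not used for starts). Microhomology and insertions were the overlap or gap between bait and prey alignments in a read. Where genes overlap, the junction was given to the one whose end was closest.

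Identical positions were all counted. With DRB and etoposide, repeats of a position and strand already counted were 47.9% of near-bait junctions, against 54.0% and 27.3% in etoposide replicates 2 and 1. The labels do not say that replicates are separate cultures, so the spread between them may be technical. Ratio intervals are normal approximations on the log scale, and shares carry exact Clopper-Pearson intervals, all for counting error only. Tests used scipy 1.17.1 in Python 3.11.15 and limma 3.58.1 in R 4.3.3, and the gene test was checked on simulated data. The comparison, gene lists and distance groups were chosen with earlier results of these data known. Named genes were those with most junctions with DRB and etoposide or with etoposide, those with the lowest and highest ratios, and up to 3 of each list. Smyd2, the 20-kb windows and the kappa segments were outside that rule and were picked after their values were seen. The values of 1 tested gene are not reported here.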

Additional observations from a re-analysis of the deposited data

Results flagged for a closer look

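For prey outside antigen receptor loci, the ratio with etoposide to without it differed between the libraries with DRB and those without DRB. Single libraries were compared, not conditions. Per 1000 junctions near the bait, the rate was 113 with DRB and etoposide and 53.8 with DRB alone, a ratio of 2.09 (1.71 to 2.56). It was 821 in etoposide replicate 2 and 69.8 in untreated replicate 2, a ratio of 11.8 (10.5 to 13.2). The first ratio was 0.178 times the second (0.141 to 0.224, Wald test, adjusted p = 4.28e-47), and 0.146 times that of replicate 1 (0.116 to 0.184). The interval and test cover counting error in single libraries, and the effect of the sequencing run, which differed between the libraries with and without etoposide in the first 2 ratios, was not tested.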

How the results depend on the processing

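Of 50 alternatives over the 6 main results, 40 were classed as the same. For ratios and shares this means the same direction and side of the threshold. For the number of genes called it means a count close to the reported 8, which held for 5 of 12 alternatives (8 to 10 genes). The ratio of prey rates outside antigen receptor loci ranged from 0.120 to 0.219 against etoposide replicate 2 and was 0.0131 without etoposide replicate 2. The gene body difference stayed between -24.4 and -20.8 points and the gene start difference between -10.1 and -6.24 points. The chromosome 6 share difference stayed between -4.42 and -0.0147 points, never past the threshold. The antigen receptor ratio of 0.875 was 0.780 with identical positions counted once, 0.524 without etoposide replicate 2 and 1.40 on the scale of all junctions, which holds the lower prey itself. The 8 genes with a lower rate became 4 for prey beyond 10 Mb, 5 for alignments of at least 50 bp, 3 with at least 5 junctions per gene, 0 with no filter, 81 without etoposide replicate 2 and 0 when scaled to all junctions or to prey outside antigen receptor loci. Fewer genes were tested at 10 Mb (9) and 50 bp (6) and more with lower minimums (52 and 1707). Without etoposide replicate 2, 81 genes were tested and all 81 were called. The cause of the other shifts was not tested. Leaving out simple repeats, recurrent 20-kb windows or Foxp1 was chosen after seeing the data and changed no call. No paired analysis was possible because DRB with etoposide is 1 library and shares fewer than 2 replicate numbers with etoposide. Against etoposide replicate 2, no gene off chromosome 6 reached the minimum of 10 junctions.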
